A study of Homo sapiens with 6 samples.

Results

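This section describes 10 genes of the actin cytoskeleton and its transcriptional control in U2OS cells, an established human osteosarcoma line, after lowering of NUDT5. They are the transcription factor gene SRF, the actin genes ACTB, ACTG1 and ACTA2, the smooth-muscle-type genes TAGLN, CNN1, CALD1, TPM1 and MYL9, and the actin bundler gene LCP1. They were chosen by symbol, with earlier results of these data known. All 10 were found among 19977 gene symbols, and all 10 reached the mean of 1 TPM that a gene needed to be tested. TPM scales the reads of a gene by transcript length and library total, so levels of different genes can be compared within a library. Values of single libraries are given in the order of libraries 1, 2 and 3. RNA was taken 48 hours after transfection with a control siRNA that targets no gene (siCtrl, 3 libraries) or with an siRNA against NUDT5 (siNUDT5, 3 libraries), and no library received any other treatment. NUDT5 encodes a hydrolase of ADP-ribose. Nothing in the labels says whether the 3 libraries of a group came from separate cultures, or whether 1 or several siRNAs were used, so a p-value measures the spread between these libraries only.

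Serum response factor, the product of SRF, binds a short A- and T-rich element called the CArG box. With cofactors of the myocardin family, some of which are held in the cytoplasm by monomeric actin, it drives genes of actin filaments and contraction. With ternary complex factors such as ELK1 it drives immediate early genes, which respond to growth factors within minutes. In fibroblast-like and osteosarcoma cells the actin branch is linked to stress fibres and adhesion, and TAGLN, CNN1 and ACTA2 are commonly used to follow it.

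NUDT5 had 46.2, 49.0 and 52.0 TPM in siCtrl, while the siNUDT5 libraries had 3.04, 2.74 and 2.67 TPM, so the target was low in each library labelled siNUDT5. Ratios of low values between libraries, which follow whole reads, put the depth of siCtrl 2 at 64.1% of that of siCtrl 1 and that of the other 4 libraries at 89.4% to 118%. siCtrl 2 also lay farthest from the other controls, with a median gene difference of 0.227 to 0.296 on the log2(TPM + 1) scale against 0.0967 to 0.134 within the other pairs of a group. The mesenchymal markers VIM, SPARC and COL1A1 were high, at 318 TPM or more in every library, while COL1A2 and TWIST1 were near 0. The epithelial keratin genes KRT8 and KRT18 were also expressed, and EPCAM, an epithelial adhesion gene, fell from 9.89 to 5.39 TPM (adjusted p = 0.0271, not past the threshold without siCtrl 3 or any 1 siNUDT5 library, where it was 0.0860 to 0.0958). The other epithelial markers were low. KRT19 had at most 0.222 TPM in any library, and CDH1 had 2.18 TPM in siCtrl and 1.96 TPM in siNUDT5 and did not pass. All 6 defining markers of differentiated smooth muscle, among them MYH11 and MYOCD, stayed under 1 TPM in each library, with sums of 1.56 to 1.86 TPM in siCtrl and 0.898 to 1.78 TPM in siNUDT5.

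The 10 genes did not move as 1 block. LCP1, SRF and TAGLN fell after siNUDT5, to 49.5%, 54.7% and 70.2% of their control means, and none of the 10 rose. The abundant actins ACTB and ACTG1, the smooth muscle actin gene ACTA2, CNN1, CALD1, TPM1 and MYL9 did not pass the test, with siNUDT5 means between 84.5% and 105% of control. Thus 3 of 10 genes were lower and 0 were higher, beside 5.20% lower, 10.9% higher and 16.1% in either direction among all 12236 genes tested (limma on log2(TPM + 1), adjusted p under 0.05). Because the 10 were chosen with earlier results of these data known, these counts are a description only. The libraries of the 2 groups did not overlap in 4 of the 10, all of them lower in siNUDT5, where 12.9% of tested genes were lower and 24.3% higher in this way. The median log2 change of the 10 was -0.14, and that of all tested genes was 0.05. Without siCtrl 2, 5 of the 10 were lower and 0 higher, beside 9.27% lower and 21.9% higher among all genes.

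**Figure D1:**
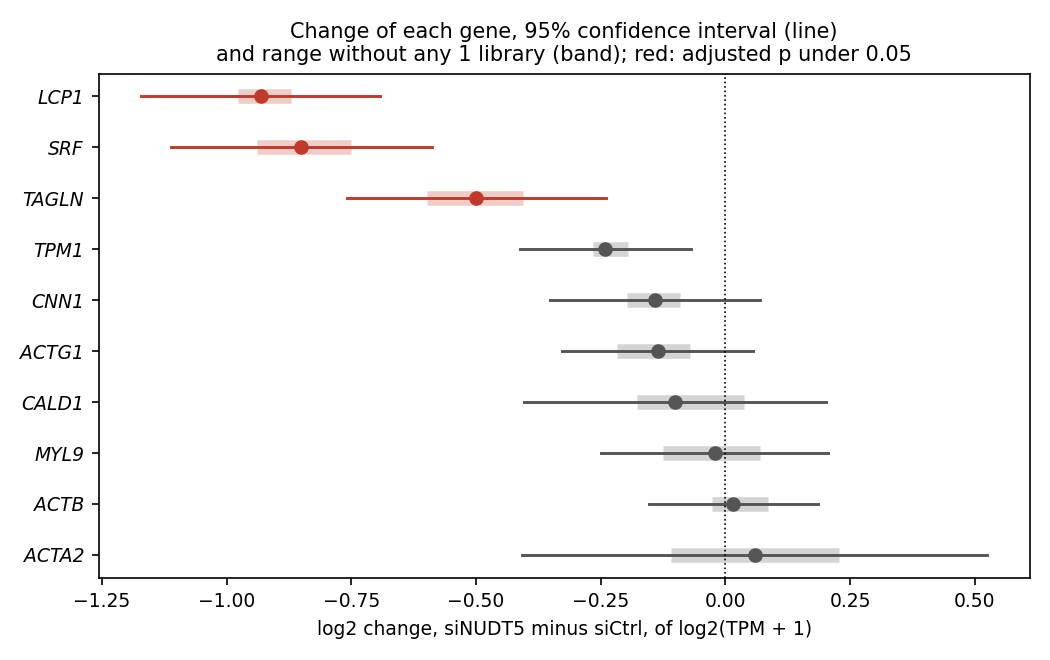
Log2 change of each of the 10 genes (siNUDT5 minus siCtrl, on the log2(TPM + 1) scale) with its 95% confidence interval as a line and the range of the estimate without any 1 library as a band. LCP1, SRF and TAGLN lie below 0, TPM1 is next at -0.24, and the other 6 have intervals that include 0.

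SRF itself was lower after siNUDT5. It had 92.4, 71.1 and 79.3 TPM in siCtrl, while the siNUDT5 libraries had 43.7, 48.1 and 41.1 TPM. The highest siNUDT5 library thus lay well below the lowest control, siCtrl 2. The means were 80.9 ± 10.8 and 44.3 ± 3.58 TPM (SD, n = 3 each), and the log2 change was -0.85 (95% confidence interval -1.11 to -0.59) with adjusted p = 0.00273. The adjusted p stayed at or below 0.0251 whichever library was left out. Among tested genes SRF moved from above 82.2% of them in siCtrl to above 68.1% in siNUDT5.

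The SRF promoter carries CArG boxes of its own, and its sequence is shown because SRF is both a regulator and, through these boxes, a known target of itself. Promoter sequences of RefSeq, build GRCh38.p14, which is not the build hg19 that the submitters' processing notes name, covered 250 bases before to 50 bases after a transcript start and were found for 7 of the 10 genes, often with several starts. ACTB, TAGLN and MYL9 had none. A CArG box was searched as 2 cytosines, 6 bases that are each adenine or thymine, and 2 guanines, a pattern that reads alike on both strands. The 150 bases before 1 of 2 SRF starts, at chr6:43171119-43171268 on the plus strand, are printed 5′ to 3′ with the boxes in capitals, followed by the same stretch of ACTG1 at chr17:81512800-81512949 on the minus strand:

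SRF: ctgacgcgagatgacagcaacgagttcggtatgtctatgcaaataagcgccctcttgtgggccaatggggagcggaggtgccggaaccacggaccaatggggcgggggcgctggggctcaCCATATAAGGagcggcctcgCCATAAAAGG

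ACTG1: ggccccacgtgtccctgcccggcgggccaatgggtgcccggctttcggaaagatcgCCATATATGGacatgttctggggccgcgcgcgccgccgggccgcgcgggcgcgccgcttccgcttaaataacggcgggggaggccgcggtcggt

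The SRF stretch holds a box from 30 to 21 bases and a second from 10 to 1 bases before the start. The ACTG1 stretch holds a box from 94 to 85 bases before its start. These were the only members with an exact match, 2 of 7, while 1.29% of all 35116 promoter sequences and 1.54% of the 9223 tested genes with a sequence held one. A box with 1 base off the pattern was found in 4 of the 7, SRF, ACTA2, CALD1 and LCP1, where 18.2% of the tested genes held one. A match describes the letters only, and a box outside the window searched would have been missed. SRF fell, and ACTG1, with a box as well, did not pass the test.

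The actins form the filament on which the other proteins act. ACTB and ACTG1 encode the non-muscle beta and gamma actins, which differ in a few residues, and ACTA2 encodes the alpha actin of smooth muscle and myofibroblasts. ACTB was the most abundant of the 10 genes. It measured 11333, 9689 and 9915 TPM in the controls against 10048, 10295 and 10874 TPM in siNUDT5. The groups overlapped, and the log2 change was 0.02 (95% confidence interval -0.15 to 0.18, adjusted p = 0.917).

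ACTG1 measured 4627, 3781 and 4316 TPM in the controls against 3663, 4026 and 3859 TPM in siNUDT5. Only siCtrl 2 fell within the siNUDT5 range. The log2 change was -0.14 (95% confidence interval -0.33 to 0.06, adjusted p = 0.310), and without siCtrl 2 it was -0.22 with adjusted p = 0.0275. ACTA2 was low and varied most among the 10 genes, at 8.78, 7.26 and 11.8 TPM in siCtrl and 7.37, 12.3 and 9.50 TPM in siNUDT5. Its coefficient of variation was 24.7% in siCtrl and 25.3% in siNUDT5, where that of ACTB was 8.64% and 4.07%. The groups overlapped almost fully, and the 95% confidence interval of its log2 change, -0.41 to 0.53, allows changes in either direction.

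The 6 actin genes of the table, with ACTA1, ACTC1 and ACTG2, summed to 14565 ± 1276 TPM in siCtrl and 14265 ± 516 TPM in siNUDT5 (SD, n = 3 each), or 1.46% and 1.43% of all TPM. ACTB made up 70.8 ± 1.14% of this sum in siCtrl and 72.9 ± 1.002% in siNUDT5, and ACTA2 0.0638% and 0.0679%. RefSeq names 14 pseudogenes of ACTB and 21 of ACTG1, none of which has a row in the table. The sources used here do not say how reads shared with these copies were counted, so the levels of ACTB and ACTG1 are uncertain. In GENCODE 29, FAS and STAMBPL1 overlap ACTA2 on the opposite strand. Neither passed the test, with log2 changes of -0.10 and -0.16.

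**Figure D2:**
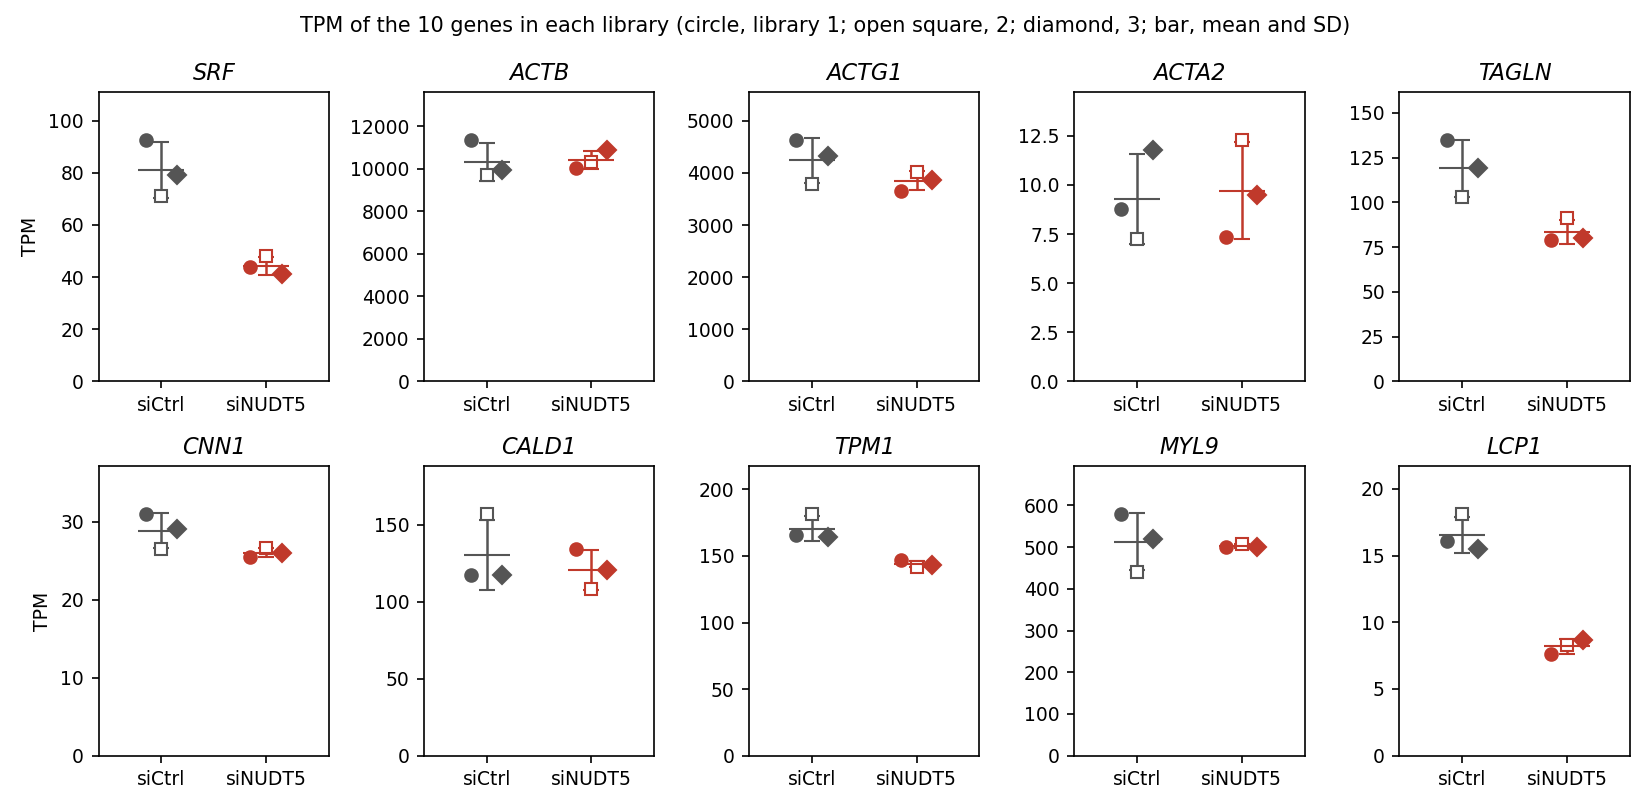
TPM of the 10 genes in each of the 6 libraries, 1 panel per gene with its own linear axis from 0. Circles, open squares and diamonds are libraries 1, 2 and 3 of a group, and the bar and whiskers are the mean and SD. In SRF, TAGLN, TPM1 and LCP1 all siNUDT5 points lie below all siCtrl points.

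TAGLN, which encodes the actin-binding protein transgelin or SM22 alpha, fell to 70.2% of its control mean. It had 135, 103 and 119 TPM in siCtrl, while the siNUDT5 libraries had 79.2, 91.4 and 80.04 TPM. The groups did not overlap, with siCtrl 2 again the lowest control. The means were 119 ± 15.9 and 83.6 ± 6.81 TPM (SD, n = 3 each), and the log2 change was -0.50 (95% confidence interval -0.76 to -0.24) with adjusted p = 0.0215. The adjusted p was 0.0824 without siCtrl 3, 0.0904 without siNUDT5 1 and 0.0981 without siNUDT5 3, and with siCtrl 2 left out it was 0.000232. PCSK7, which overlaps TAGLN on the opposite strand in GENCODE 29, had a log2 change of -0.16 and did not pass.

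CNN1 encodes calponin 1, which binds actin and restrains myosin activity in smooth muscle. It measured 30.9, 26.5 and 29.1 TPM in the controls against 25.4, 26.6 and 26.0 TPM in siNUDT5. The siNUDT5 values reached up to that of siCtrl 2, and the other controls lay above them. Its log2 change was -0.14 (95% confidence interval -0.35 to 0.07, adjusted p = 0.340).

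CALD1 encodes caldesmon, which holds tropomyosin-bound filaments in an inhibited state. Control libraries gave 117, 157 and 117 TPM for it, and siNUDT5 libraries 134, 108 and 120 TPM. siCtrl 2 was the highest of all 6 libraries and the groups overlapped. The log2 change was -0.10 with all libraries and 0.04 without siCtrl 2, and neither passed.

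TPM1 encodes tropomyosin 1, which runs along the actin filament and stabilizes it. It had 166, 181 and 164 TPM in siCtrl, while the siNUDT5 libraries had 147, 142 and 143 TPM. The groups did not overlap, and siNUDT5 varied little, at 144 ± 2.47 TPM against 170 ± 9.35 TPM in siCtrl (SD, n = 3 each). The log2 change was -0.24 (95% confidence interval -0.41 to -0.07) with adjusted p = 0.0622. It was called with median-ratio scaling (0.0247), with quantile normalization (0.0250) and without siCtrl 2 (0.0370). The table gives 1 value per gene symbol, so the muscle and non-muscle transcripts of TPM1 cannot be told apart.

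MYL9 encodes a regulatory light chain of myosin II, whose phosphorylation starts contraction in smooth muscle and in stress fibres. It measured 578, 441 and 520 TPM in the controls against 500, 507 and 501 TPM in siNUDT5. The siNUDT5 libraries all lay inside the control range, between siCtrl 2 and siCtrl 3. The log2 change was -0.02 (95% confidence interval -0.25 to 0.21, adjusted p = 0.914).

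LCP1 had the largest log2 change of the 10 genes with all libraries (-0.93, against -0.85 in SRF), but without siCtrl 2 (-0.87 against -0.94) and with a pseudocount of 5 (-0.71 against -0.80) SRF had the larger. It encodes L-plastin, a protein that bundles actin filaments, known from leukocytes and also found in many tumour cell lines. Control libraries gave 16.1, 18.1 and 15.5 TPM for it, and siNUDT5 libraries 7.59, 8.31 and 8.68 TPM. The groups were far apart, and siCtrl 2 was here the highest library. The means were 16.5 ± 1.37 and 8.19 ± 0.557 TPM (SD, n = 3 each), and the 95% confidence interval of the log2 change was -1.17 to -0.69 with adjusted p = 0.00150. The adjusted p stayed at or below 0.0140 whichever library was left out.

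The LCP1 promoter is shown beside those above because this gene fell and had no exact CArG box in the window searched. Its 150 bases before the start, at chr13:46182178-46182327 on the minus strand, are:

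LCP1: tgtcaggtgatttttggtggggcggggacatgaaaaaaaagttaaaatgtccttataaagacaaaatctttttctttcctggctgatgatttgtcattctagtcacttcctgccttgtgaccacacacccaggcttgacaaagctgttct

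The whole window searched held 1 stretch that is 1 base off the CArG pattern. Markers of leukocytes, in which LCP1 is best known, were mostly near 0. Of 12 such markers 9 stayed under 1 TPM in each library, PTPRC, which encodes CD45, among them. Their sum was 8.92 to 9.90 TPM in siCtrl and 8.83 to 9.42 TPM in siNUDT5, with no marker at 0 in all libraries. Of the 3 tested markers VAV1, a guanine nucleotide exchange factor, fell from 4.66 to 2.21 TPM (adjusted p = 0.00330). LAPTM5, a lysosomal membrane protein gene, rose from 1.24 to 2.30 TPM (adjusted p = 0.0261, and 0.0584 to 0.0977 without siCtrl 1, siCtrl 3 or any 1 siNUDT5 library), and CORO1A did not pass. The tested genes whose pattern over the 6 libraries was most like that of LCP1 were PLAC8, KLRG1 and GRB14. Likeness was measured as the root mean square difference of log2(TPM + 1) after each gene's mean was taken off, and it was 0.0574, 0.0644 and 0.0677 in this order. All 3 were lower in siNUDT5, which follows from choosing them by likeness to LCP1 and is no separate result. PLAC8 was at 29.2 ± 2.49 TPM in siCtrl and 15.2 ± 0.0803 TPM in siNUDT5 (SD, n = 3 each).

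**Figure D3:**
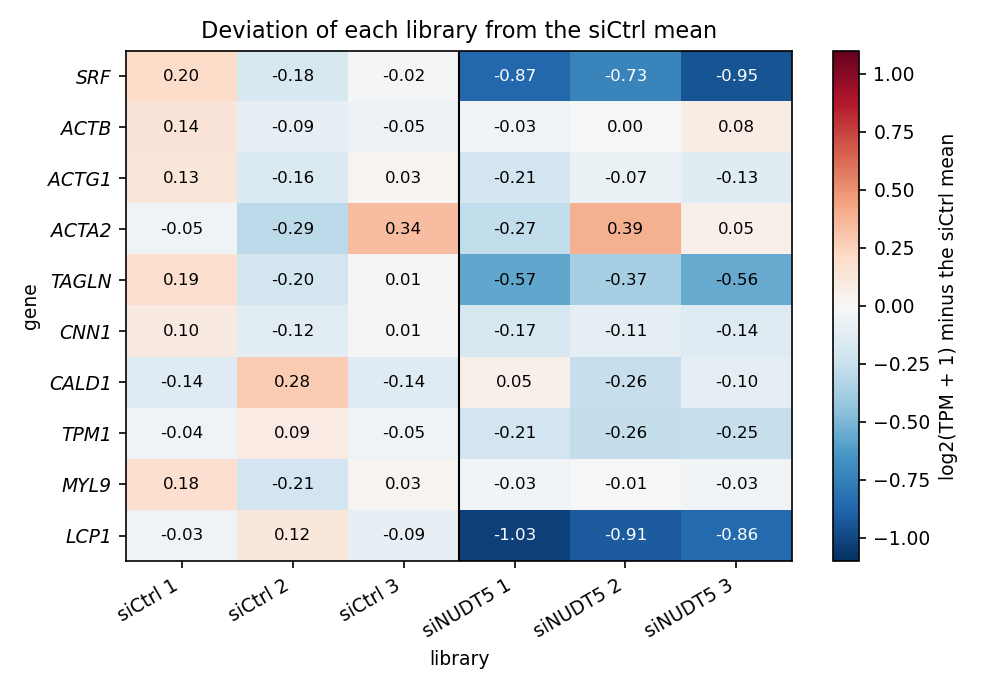
Deviation of each library from the siCtrl mean of a gene, on the log2(TPM + 1) scale, with genes in rows and libraries in columns. The rows of SRF, TAGLN and LCP1 are negative in all 3 siNUDT5 libraries, from -0.37 to -1.03. Those of ACTG1, CNN1, TPM1 and MYL9 are also negative in all 3, but closer to the siCtrl mean, from -0.008 to -0.26. siCtrl 2 is the lowest or highest control in every row.

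Among the controls siCtrl 2 was the lowest library in 7 of the 10 genes (SRF, ACTB, ACTG1, ACTA2, TAGLN, CNN1 and MYL9) and the highest in the other 3 (CALD1, TPM1 and LCP1). Its part in the differences between groups can be read from the values without it. SRF changed by -0.94, LCP1 by -0.87 and TAGLN by -0.60 without it, against -0.85, -0.93 and -0.50 with all libraries. In siNUDT5, library 1 was lowest in 7 genes and library 2 highest in 6.

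The order of levels changed at its lower end. In siCtrl, mean levels ran from ACTB over ACTG1, MYL9, TPM1, CALD1, TAGLN, SRF, CNN1 and LCP1 to ACTA2. Neighbours in this order had separate ranges over the 3 libraries except CALD1 and TAGLN. In siNUDT5 the order was the same down to CNN1, and ACTA2 then came before LCP1, with overlapping ranges. LCP1 thus moved from above ACTA2 to its level. SRF remained between TAGLN and CNN1.

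Other members of the same protein families were compared with the 10 genes within each library, a ratio that does not depend on library scaling. The 8 pairs were chosen with their values known, so their ratios are a description only. TAGLN2, the transgelin of non-muscle cells, rose from 739 ± 113 to 975 ± 58.8 TPM (SD, n = 3 each, adjusted p = 0.0417) while TAGLN fell. The ratio of TAGLN to TAGLN2 was 0.159, 0.165 and 0.160 in siCtrl and 0.0849, 0.0877 and 0.0844 in siNUDT5. This ratio was nearly constant within each group, also in siCtrl 2.

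Among the calponins CNN1 did not pass, as given above. CNN2 rose from 216 ± 26.4 to 295 ± 11.1 TPM (adjusted p = 0.0180) and CNN3 from 533 ± 62.6 to 683 ± 25.5 TPM (adjusted p = 0.0321, SD and n = 3 each). The ratio of CNN1 to CNN2 was 0.130, 0.142 and 0.130 in siCtrl and 0.0886, 0.0865 and 0.0898 in siNUDT5, with no overlap. LCP1 went from 0.304, 0.219 and 0.258 of the level of PLS3, the plastin of most solid tissues, to 0.0810, 0.101 and 0.105. PLS3 itself did not pass with all libraries (65.2 against 86.1 TPM, adjusted p = 0.104), and rose without siCtrl 2 (0.000254). PLS1, the third plastin gene, fell from 21.99 ± 4.89 to 13.1 ± 1.06 TPM (SD, n = 3 each, adjusted p = 0.0199), as LCP1 did. The ratio of LCP1 to PLS1 was 0.894, 0.659 and 0.754 in siCtrl and 0.538, 0.693 and 0.656 in siNUDT5, so the groups overlapped.

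In the pair of TPM1 and TPM4 and in that of MYL9 and MYL12B the groups did not overlap. The ratio of TPM1 to TPM4, a tropomyosin of non-muscle cells, was 0.761 ± 0.0205 in siCtrl and 0.585 ± 0.00707 in siNUDT5, and that of MYL9 to MYL12B was 0.524 ± 0.0800 and 0.418 ± 0.00216 (SD, n = 3 each). MYL12B, a regulatory light chain gene of non-muscle myosin, rose from 981 to 1203 TPM (adjusted p = 0.0143). The ratio of ACTB to ACTG1 overlapped between the groups, at 2.44 ± 0.133 and 2.71 ± 0.134 (SD, n = 3 each). With median-ratio scaling TAGLN2 did not pass (0.106). The calls of CNN2, TAGLN2, CNN3, MYL12B and PLS1 were lost without some single libraries, with the highest adjusted p at 0.0816, 0.148, 0.126, 0.0778 and 0.0844 in this order.

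**Figure D4:**
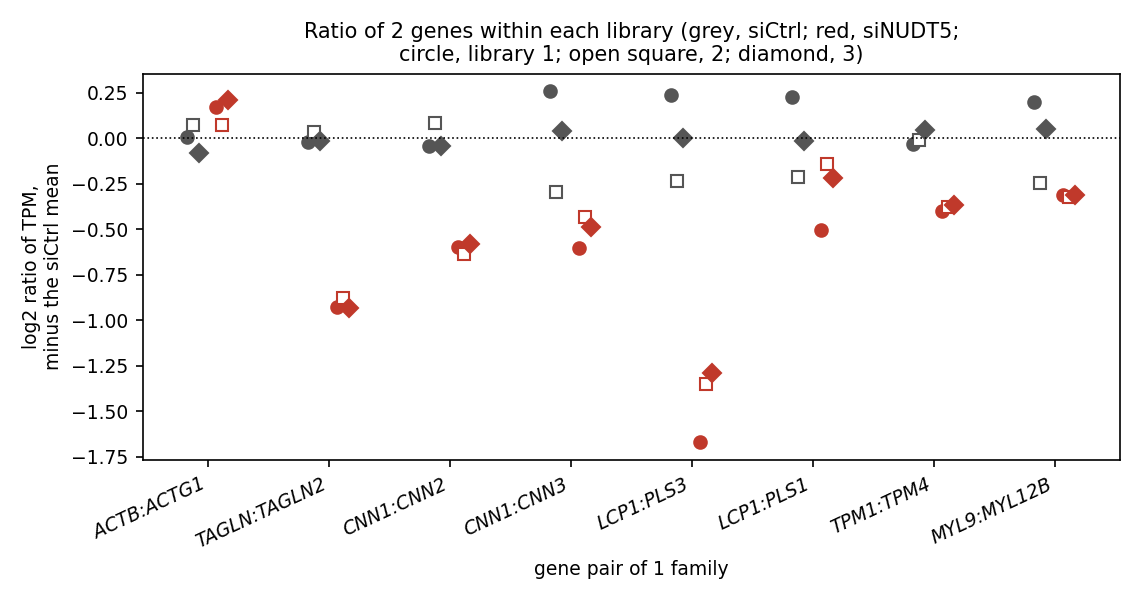
Log2 ratio of TPM of 2 genes of a family within each library, minus the siCtrl mean of that ratio, for 8 pairs. Grey points are siCtrl and red points siNUDT5. In 6 pairs all siNUDT5 points lie below all siCtrl points, TAGLN to TAGLN2 by about 0.91 on the log2 scale, and in ACTB to ACTG1 and LCP1 to PLS1 they overlap.

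Further genes of the actin and SRF system came from lists by role. The lists were also chosen with earlier results of these data known, so their counts are a description only. Among 10 tested cofactors and modulators of SRF 1, ELK1, rose, and none fell, beside 10.9% higher and 5.20% lower among all genes. ELK1, a ternary complex factor, measured 109, 88.7 and 97.6 TPM in the controls against 128, 134 and 127 TPM in siNUDT5 (adjusted p = 0.0228). It was not past the threshold without siCtrl 3 or any 1 siNUDT5 library (0.0840 to 0.102), with median-ratio scaling (0.0562) or with quantile normalization (0.0602). The myocardin-related cofactors MKL1 and MKL2 had log2 changes of 0.23 and -0.29 and did not pass. With quantile normalization MKL2 was called lower (0.0419) and no gene of the list higher. MYOCD was too low to be tested. Without siCtrl 2, 1 cofactor rose and 2 fell, beside 21.9% and 9.27% of all genes.

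Of 7 tested immediate early genes, known targets of SRF, 5 rose and none fell, beside 10.9% higher and 5.20% lower among all genes, with a median log2 change of 0.49. This list too was chosen with earlier results known, so the count is no separate support. FOS had 2.88, 2.89 and 2.62 TPM in siCtrl, while the siNUDT5 libraries had 7.01, 5.70 and 5.80 TPM. All 3 siNUDT5 libraries lay far above the controls, at 221% of the control mean (adjusted p = 0.00213). EGR2 reached 265% (adjusted p = 0.00975), JUNB 143% (0.0164), EGR1 141% (0.0119) and IER2 131% (0.0227), while MCL1 (log2 change -0.24) and NR4A1 (0.41) did not pass. EGR2 was near the floor, at 0.668, 0.596 and 0.853 TPM in siCtrl and 2.30, 1.78 and 1.54 TPM in siNUDT5. It reached the mean of 1 TPM, and so the test and the count of 5, only through its siNUDT5 level. JUNB, EGR1 and IER2 lost the call without siCtrl 3 or siNUDT5 1, and JUNB and IER2 also without siNUDT5 2 or siNUDT5 3, with adjusted p up to 0.0810, 0.0649 and 0.114. In these runs 2 to 3 of the 7 rose, where 520 to 592 of all genes were higher. Without siCtrl 1, 5 rose, where 1334 of 12231 genes were higher, and without siCtrl 2 also 5, beside 21.9% of all genes. IER2 was also lost with quantile normalization (0.0588). FOS and EGR2 passed whichever library was left out. Exact CArG boxes were found in the promoter windows of EGR1 and EGR2, 2 of the 7 genes of the list with a promoter sequence. Of all tested genes with a sequence 1.54% held one. The windows of FOS, JUNB and IER2 held none. Stretches outside the windows were not searched, so a box farther from the start of these genes would have been missed.

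Among genes of stress fibres and focal adhesions PDLIM1 and VCL fell. PDLIM1, a PDZ and LIM domain protein gene of stress fibres, measured 77.0, 75.3 and 68.9 TPM in the controls against 33.1, 32.7 and 32.2 TPM in siNUDT5 (adjusted p = 0.000298). The siNUDT5 values were nearly identical and well below the controls. VCL, the gene of vinculin, an adhesion protein and known SRF target, fell to 67.6% of control, from 202 ± 4.89 to 136 ± 4.94 TPM (SD, n = 3 each, adjusted p = 0.00219). Both passed whichever library was left out. Neither promoter window held an exact CArG box, and stretches outside the windows were not searched. Of 23 tested genes 2 fell and 5 rose, MYH14, CNN2, TAGLN2, CNN3 and MYL12B, beside 5.20% lower and 10.9% higher among all genes, with a median log2 change of 0.07. Without siCtrl 2, 9 rose and 4 fell, beside 21.9% and 9.27% of all genes. Without any other single library 0 to 4 rose and 2 fell, where 520 to 1334 of all genes were higher and 213 to 741 lower. MYH14, a non-muscle myosin heavy chain gene, reached 155% of control and was not past the threshold without any 1 siNUDT5 library, with adjusted p up to 0.115.

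Among 16 other tested bundlers and crosslinkers 3 rose and PLS1 fell, beside 10.9% higher and 5.20% lower among all genes, with a median log2 change of 0.11. A count of 1 fall in 16 is close to that background. SPTBN1, a spectrin gene, rose to 141% of control (adjusted p = 0.00729) whichever library was left out. ACTN1, a non-muscle alpha-actinin gene, reached 125% (0.0248, and 0.0767 with median-ratio scaling). ACTN4, another such gene, stayed at 99.5% and did not pass (adjusted p = 0.974). MARCKSL1 reached 127% (0.04997, and 0.121 with median-ratio scaling). ACTN1, MARCKSL1 and PLS1 lost the call without siCtrl 3 or any 1 siNUDT5 library, with adjusted p up to 0.115, 0.157 and 0.0844. FSCN1, the gene of the bundler fascin, and FLNA, the filamin A gene, did not pass with all libraries. FLNA fell without siCtrl 2 (log2 change -0.26, adjusted p = 0.00935), where 4 of the list rose and 2 fell, beside 21.9% and 9.27% of all genes.

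Of 19 tested genes of actin monomer binding, severing and capping GSN rose and TMSB4X fell. These counts are no higher than a background of 10.9% higher and near one of 5.20% lower among all genes. GSN, the gene of the severing protein gelsolin, went from 22.4 ± 1.61 to 33.6 ± 0.520 TPM (SD, n = 3 each, adjusted p = 0.00552) and passed without any single library. TMSB4X, whose product thymosin beta 4 binds actin monomers, went from 755 ± 48.0 to 616 ± 27.3 TPM (SD, n = 3 each, adjusted p = 0.0325). With single libraries left out TMSB4X passed without siCtrl 2 alone, and the adjusted p was up to 0.139 without another. Without siCtrl 2, 6 of the list rose and 1 fell, beside 21.9% and 9.27% of all genes.

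Of 20 tested nucleators and activators 4 rose and none fell, beside 10.9% higher and 5.20% lower among all genes. They were ARPC1B (155% of control, adjusted p = 0.00791) and ARPC1A (135%, 0.00621), which encode alternative subunits of the ARP2/3 complex, the formin gene FMNL3 (144%, 0.0116) and WASF2 (128%, 0.0147), which activates that complex. The ARPC1 genes passed whichever library was left out. WASF2 lost the call without siCtrl 3 or any 1 siNUDT5 library, FMNL3 without siCtrl 3, siNUDT5 2 or siNUDT5 3, with adjusted p up to 0.0851 and 0.0666. Without siCtrl 2, 10 rose and 1, WASF3, fell, beside 21.9% and 9.27% of all genes. WASF3, an activator of the same complex, had a log2 change of -0.35 and an adjusted p of 0.0556 with all libraries, and was called lower with median-ratio scaling (0.0315), with quantile normalization (0.0249), with no variance trend and without siCtrl 1.

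**Figure D5:**
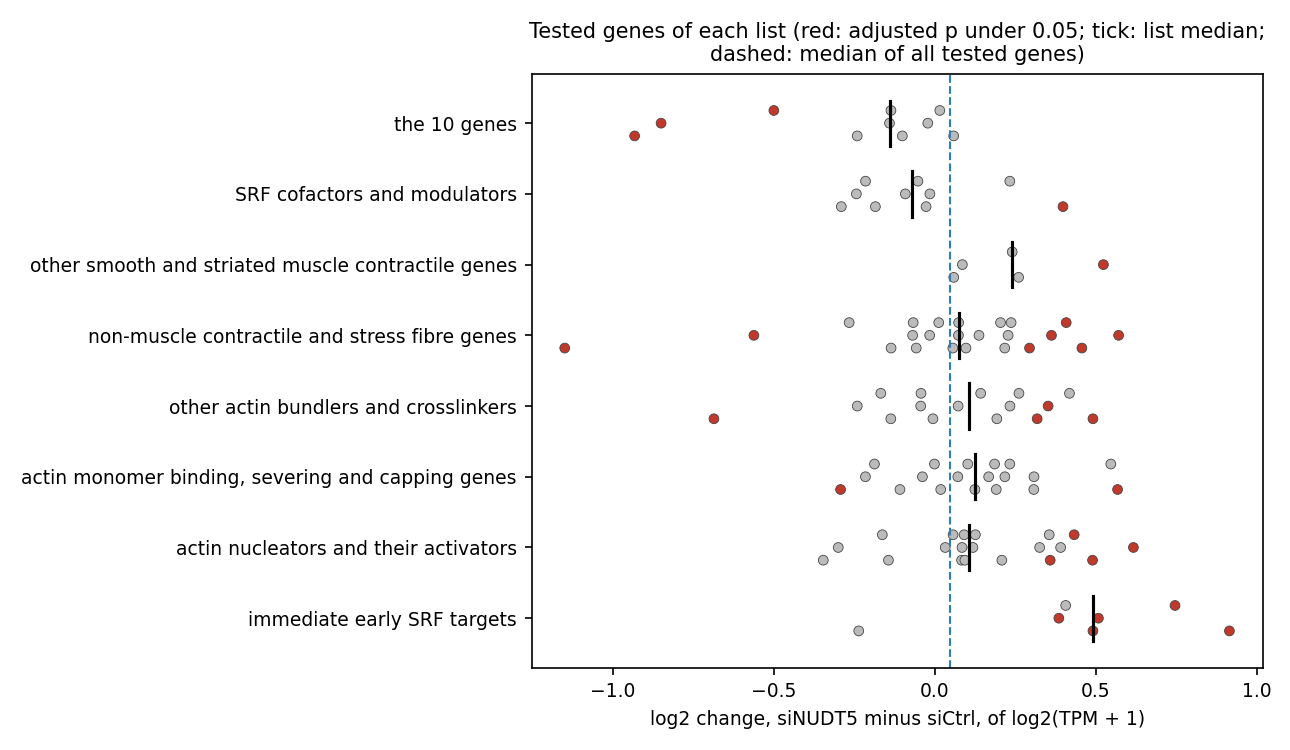
Log2 change of every tested gene of each list (siNUDT5 minus siCtrl, on the log2(TPM + 1) scale), red where the adjusted p is under 0.05, with a tick at each list's median and a dashed line at the median of all tested genes, 0.05. The 10 genes have their red points at -0.50 and below, and the immediate early SRF targets have theirs above 0.

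Of 14 other muscle-type contractile genes only 5 reached the level to be tested. Of these 1, SMTN, rose and none fell, beside 10.9% higher and 5.20% lower among all genes. A count of 1 in 5 is too small to set apart from that background. Without siCtrl 2 the counts were the same, beside 21.9% and 9.27% of all genes. SMTN, the smoothelin gene, went from 37.6 ± 5.26 to 54.2 ± 3.59 TPM (SD, n = 3 each, adjusted p = 0.0201). The call was lost without siCtrl 3 or any 1 siNUDT5 library (0.0632 to 0.0928) and with quantile normalization (0.0555). Of the 12 genes of this list with a promoter sequence 7 held an exact CArG box, SMTN among them, beside 1.54% of tested genes with a sequence. TPM2, the beta tropomyosin gene, stayed near its control level, at 295 ± 39.2 and 305 ± 6.05 TPM (SD, n = 3 each). TNNT2, the cardiac troponin T gene and the only tested marker among 7 of striated muscle, fell from 25.4, 24.96 and 22.7 TPM to 8.50, 10.4 and 9.47 TPM (adjusted p = 0.000427). MYOG and MYH7, other markers of that list, were listed at 0 in all 6 libraries.

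The 3′ UTRs were searched for 3 words of 7 bases that had been picked earlier on the log2 changes of these same libraries, so their presence is a description only. AAGACTT or AGACTTA was held by 22.5% of 11454 tested genes with a 3′ UTR in GENCODE 29, and GATTAAC by 6.19%. Of the 10 genes TPM1 alone held AGACTTA, and none held GATTAAC. The 3′ UTRs of LCP1, SRF, TAGLN, PDLIM1 and VCL held none of the 3 words. Those of FOS, GSN and SMTN, which rose, also held none. EGR1, FMNL3, WASF2 and ACTN1, which rose as well, held 1 match each.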

How the data were processed

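RNA of 3 siCtrl and 3 siNUDT5 libraries was prepared with a strand-specific mRNA kit, per the labels' protocols. The authors deposited TPM per gene symbol, each library summing to 1000000, with no counts. The build hg19 and the tools DESeq2 1.22.1 and STAR 2.7.3a appear, without a role, per the submitters' processing notes. For the annotation, the use of strand and the way TPM were made: not given in the sources used here.

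Groups and numbers come from the titles, and 0 columns were unmapped. limma 3.58.1 in R 4.3.3 (lmFit, eBayes with a trend) was run on log2(TPM + 1) for 12236 genes whose mean reached 1 TPM, siNUDT5 minus siCtrl, two-sided, with Benjamini-Hochberg adjustment over all of them, and was tested on simulated data. A gene was called, or passed, at an adjusted p under 0.05. Log2 changes on this scale understate those of low genes. Of all genes 1334 were higher and 636 lower, 1040 and 895 with median-ratio scaling, and 1018 and 965 with quantile normalization. Genes below 0.3 TPM in siCtrl 1 gave the relative depth. After scaling, 72.0% to 81.5% of their ratios lay within 0.1% of ratios of small whole numbers.

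The 10 genes and the lists (153 entries, all matched by symbol) were chosen with earlier results of these data known. A further list is not reported here. Named genes are the 10, NUDT5, up to 4 called genes of each list by size of change, and the 3 genes most like the member with the largest change. Other genes named were chosen after their values were seen: those given as not passing, TAGLN2, CNN3, MYL12B and IER2. Ratios were computed in Python 3.11.15. An exact permutation test of each ratio gave p of 0.1 to 0.2, and none passed. With 3 libraries per group it cannot go below 0.1, and the pairs were chosen with their values known, so nothing is drawn from it. Alternatives left out each library in turn, changed the pseudocount to 0.1 or 5, dropped the filter or raised it to 5 TPM, used the 2 scalings, fitted no trend, or took the replicate number as a block.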

Additional observations from a re-analysis of the deposited data

How the results depend on the processing

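The 3 falls among the 10 genes became 5 without siCtrl 2 and were 2 to 5 over the libraries left out in turn. With the replicate number as a block, 2 of the 10 passed (LCP1 and SRF, with TAGLN at adjusted p = 0.0805), and 739 genes in all against 1970. The numbers share no stated origin, and the deviations of same-numbered libraries correlated at -0.426, -0.538 and -0.0449, so the block pairs nothing known. Leaving out 1 library gave 764 to 3804 calls.

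Under the block, calls were 0 in the SRF cofactors, 0 in the other muscle genes, 2 in the non-muscle contractile genes, 0 in the bundlers, 1 in the turnover genes, 1 in the nucleators and 2 in the immediate early genes. With all libraries they were 1, 1, 7, 4, 2, 4 and 5. Over single libraries left out they ran, in this order, over 0 to 3, 0 to 1, 2 to 13, 1 to 6, 1 to 7, 2 to 11 and 2 to 5. Each upper end was reached without siCtrl 2, where 21.9% of all genes were higher and 9.27% lower. Calls among all genes were 739 under the block, 1970 with all libraries and 764 to 3804 over single libraries left out. The genes tested in these runs were 12216 to 12238. The list counts did not always move with the calls among all genes. Without siCtrl 2 the immediate early genes stayed at 5 and the other muscle genes at 1. Median-ratio scaling left 0 SRF cofactors and 2 bundlers, quantile normalization 0 other muscle genes and, among the SRF cofactors, 0 higher and 1 lower (MKL2), no trend 1 turnover gene, and a mean of at least 5 TPM 3 immediate early genes. Without a filter 2 other muscle genes and 4 non-muscle contractile genes passed.

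Among the 10, signs turned in ACTB, ACTG1, ACTA2, CALD1 and MYL9, none of which passed. ACTB turned to -0.0393 with median-ratio scaling. Quantile normalization gave 0.0186 for ACTG1 and -0.0204 for ACTA2. Over the libraries left out ACTB ran from -0.0276 to 0.0855, ACTA2 from -0.109 to 0.227, CALD1 from -0.178 to 0.0371 and MYL9 from -0.126 to 0.0686. Outside the 10, TPM2 (-0.0525 to 0.137) and FAS (-0.226 to 0.0787) also turned, and neither passed. For the 28 named genes called with all libraries, 302 of 388 values under alternatives stayed called and none changed sign. TPM keeps no total depth, so no counting error is given for low genes such as ACTA2 and FOS.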
